A study of Rattus norvegicus with 16 samples.

Results

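MiR-31 is a small regulatory RNA and was 1 of the 350 rat miRNAs measured on these arrays. It was taken for a closer description because its kidney values after contrast medium did not overlap those of the controls, so its kidney values are given as a description with no test. The array names it rno-miR-31, without an arm, and reads it with 2 probes of 10 spots each, or 20 spots per array. No entry for its other strand, miR-31*, was among the 350.

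The study followed contrast-induced acute kidney injury (CI-AKI), the loss of kidney function that can follow an injection of iodinated contrast medium. The CI-AKI groups were male Sprague-Dawley rats of 250 to 300 g kept without water for 3 days, given furosemide, a loop diuretic, at 10 mg/kg into the muscle, and then given Omnipaque (350 mg iodine per ml), a nonionic contrast medium of low osmolarity, at 10 ml/kg into the tail vein over 5 min. The control groups had the same water deprivation and furosemide and received the same volume of normal saline, so the comparison concerns the contrast medium on top of a shared dehydration. Kidney and blood were taken at 8 h, and RNA of 3 rats was pooled for each 1-colour Agilent array, giving 4 arrays each for CI-AKI kidney, control kidney, CI-AKI plasma and control plasma (24 rats in all). Whether the injury developed in each rat is not stated in the labels, and a pool hides the spread between its rats.

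A miRNA guides a protein complex to messenger RNAs that pair with its seed, the bases near its 5′ end, and lowers their translation or stability. MiR-31 is conserved among vertebrates and is known in human endothelium as a TNF-induced miRNA that targets the adhesion molecule E-selectin, in human carcinoma cells as a regulator of RhoA and of the hypoxia factor inhibitor FIH, and in skin as an NF-kB-induced miRNA of wound edge keratinocytes. It is therefore often discussed beside inflammation, hypoxia and epithelial repair.

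The sequences below, from the RefSeq tables on the rat assembly GRCr8, show which RNAs come from the locus, since the probe sequences were not used here. Mature sequences have the seed (bases 2 to 8) in capitals, and the hairpin has the miR-31a-5p stretch in capitals.
rno-miR-31a-5p: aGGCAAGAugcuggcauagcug
rno-miR-31a-3p: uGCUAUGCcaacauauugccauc
rno-miR-31b: cUAUGCCAgcaucuugccu
Mir31 hairpin: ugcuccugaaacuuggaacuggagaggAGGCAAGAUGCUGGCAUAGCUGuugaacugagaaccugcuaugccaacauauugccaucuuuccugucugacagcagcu

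The Mir31 hairpin of 106 bases lies on the minus strand at chr5:108714849-108714954, with the 5p arm of 22 bases at chr5:108714906-108714927 and the 3p arm of 23 bases at chr5:108714869-108714891. The gene overlaps Mir3554 at chr5:108714843-108714960, which encodes miR-31b on the opposite strand. All 19 bases of miR-31b are the reverse complement of bases 1 to 19 of miR-31a-5p. Both miRNA genes lie within the span of the long noncoding RNA gene LOC130062807 at chr5:108714139-108743340, and the table does not give its exons, so whether the hairpin is exonic or intronic there was not determined. The 1 protein-coding gene of the table within 30000 bases is Ifne, an epithelial type I interferon, 26745 bases away. The seed of miR-31a-5p was carried by 1 of 693 mature rat miRNAs in the table, miR-31a-5p itself, so no other array miRNA could be grouped with it by seed.

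Some arrays stood apart before any miRNA was considered. The 75th percentile of the miRNAs detected on all kidney arrays was 458, 440, 228 and 428 units of processed signal in CI-AKI kidney pools 1 to 4, against 340, 459, 400 and 354 in control kidney pools 1 to 4. CI-AKI kidney pool 3 thus had the lowest overall signal of the 8, and the CI-AKI minus control difference of log2 percentiles was -0.042 (two-sided exact permutation p = 0.914, where the smallest possible is 0.0286). In plasma the pool 4 arrays had percentiles of 59.9 in CI-AKI and 32.5 in control, against 272 to 1047 in the other CI-AKI pools and 588 to 1024 in the other control pools. The labels also give each array a letter code, and 6 of the 8 letters stand for opposite treatments in kidney and plasma. Groups were taken from the titles, which the sample labels for treatment match, and whether a letter names the same rats in both tissues is not stated. The 8 kidney arrays lay on 1 slide and the 8 plasma arrays on another, with 1 scan each. On both slides the control arrays lay in columns 1 and 3 and the CI-AKI arrays in columns 2 and 4. Treatment and slide column therefore cannot be told apart. Of the 10 tubule markers (such as miR-192, miR-194 and miR-204), 10 were detected on all 8 kidney arrays and 5 on all 8 plasma arrays. Their detection alone thus does not tell the tissues apart. The liver miRNA miR-122 had a scaled signal of -0.512 to 0.101 in CI-AKI kidney and of -0.372 to 2.26 in control kidney. In plasma miR-122 was at 332 to 2761 units in CI-AKI and 1056 to 2104 in control, and the 3 erythroid markers summed to 2558 to 8291 in CI-AKI and 3816 to 5619 in control.

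In kidney, miR-31 was higher in every CI-AKI pool than in every control pool. The scaled signal, which is the processed signal divided by the array's 75th percentile and multiplied by the geometric mean of those percentiles over the kidney arrays, was 8.09, 9.77, 8.64 and 8.35 units in CI-AKI pools 1 to 4, against 6.55, 7.02, 7.01 and 5.28 units in control pools 1 to 4. The lowest CI-AKI pool stood 1.07 units above the highest control pool. The group means were 8.71 ± 0.740 in CI-AKI and 6.47 ± 0.821 in control (SD, n = 4 pools each), a ratio of 1.35. On the log2 scale the difference was 0.44, beside a pooled SD within groups of 0.16. In a whole kidney, more cells that hold a miRNA and more of it per cell cannot be told apart.

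**Figure D1:**
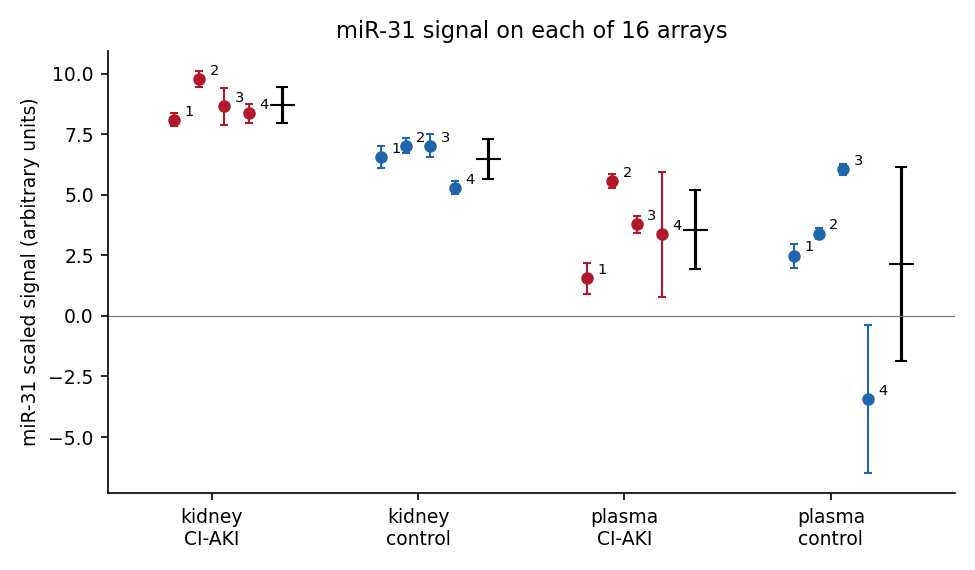
MiR-31 scaled signal (arbitrary units, vertical axis) on each array of the 4 groups, numbered by pool, with the standard error over spots as coloured bars and the group mean ± SD in black (n = 4 pools). Kidney and plasma arrays were scaled separately, so levels are comparable only within a tissue. The CI-AKI kidney pools sit between 8.09 and 9.77 and the control kidney pools between 5.28 and 7.02, while the plasma groups overlap.

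Both probes showed a difference of similar size. Probe 1 had scaled signals of 10.30, 12.43, 11.97 and 11.17 in CI-AKI kidney pools 1 to 4, against 8.53, 9.26, 9.84 and 6.49 in control kidney pools. Its log2 difference was 0.44, and the groups were separated by 0.067 on that scale. Probe 2 had 5.87, 7.11, 5.32 and 5.53 in CI-AKI kidney pools, against 4.58, 4.78, 4.18 and 4.07 in control kidney pools. Its log2 difference was 0.43 with a separation of 0.15, so neither probe's groups overlapped. The probes are read from the same labelled RNA on the same array and are no independent replicates. The arrays lay on 2 rows of the slide, and the CI-AKI minus control difference was 0.39 on the upper row (pools 1 and 2) and 0.48 on the lower row (pools 3 and 4). Because every CI-AKI pool lay above every control pool, both differences had to be positive. Within each row the 2 treatments lay in different columns, so a part of the column in this difference cannot be told apart.

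**Figure D2:**
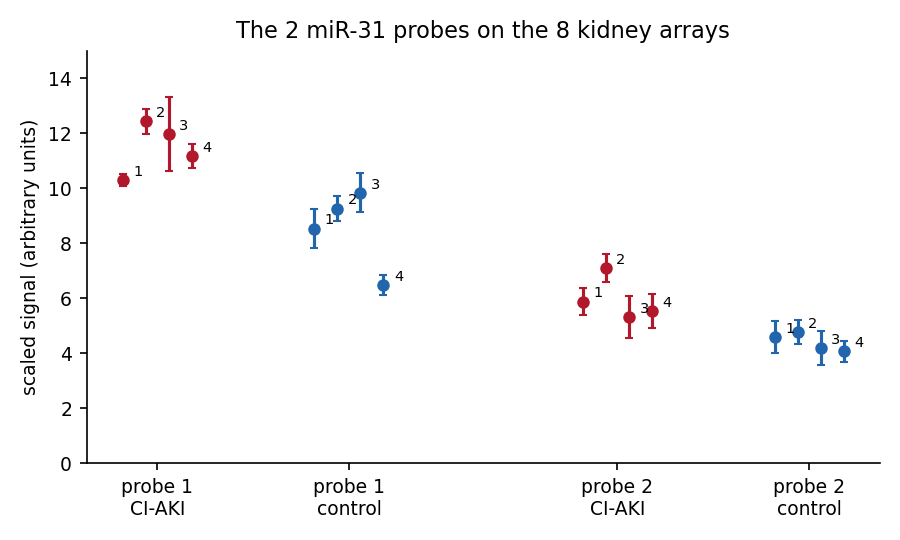
Scaled signal (arbitrary units, vertical axis) of each miR-31 probe on the 8 kidney arrays, CI-AKI in red and control in blue, numbered by pool, with the standard error over its spots. For probe 1 the CI-AKI pools span 10.3 to 12.4 and the control pools 6.49 to 9.84, and for probe 2 they span 5.32 to 7.11 and 4.07 to 4.78.

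The signal behind these values was small. Before scaling, the mean over the miR-31 spots was 9.75, 11.3, 5.18 and 9.41 units of processed signal in CI-AKI kidney pools 1 to 4, against 5.86, 8.48, 7.38 and 4.92 in control kidney pools 1 to 4. On this scale the groups overlapped, with CI-AKI pool 3 below 3 of the 4 control pools. The 288 negative control spots per array averaged -1.56 to -1.24 units in CI-AKI kidney and -1.87 to -1.39 in control kidney, with an SD over spots of 1.52 to 2.02 in CI-AKI and 1.70 to 3.04 in control.

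The scanner software called miR-31 detected on 8 of 8 kidney arrays. Of its 20 spots, 13, 18, 1 and 9 were well above background in CI-AKI kidney pools 1 to 4, against 1, 10, 0 and 2 in control kidney pools. The standard error over spots was 3.316% to 8.996% of the mean in CI-AKI kidney and 4.531% to 6.996% in control kidney. CI-AKI pool 3 had both the fewest spots well above background and the largest error of its group, and its scaled value of 8.64 rests on the low percentile of its array.

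**Figure D3:**
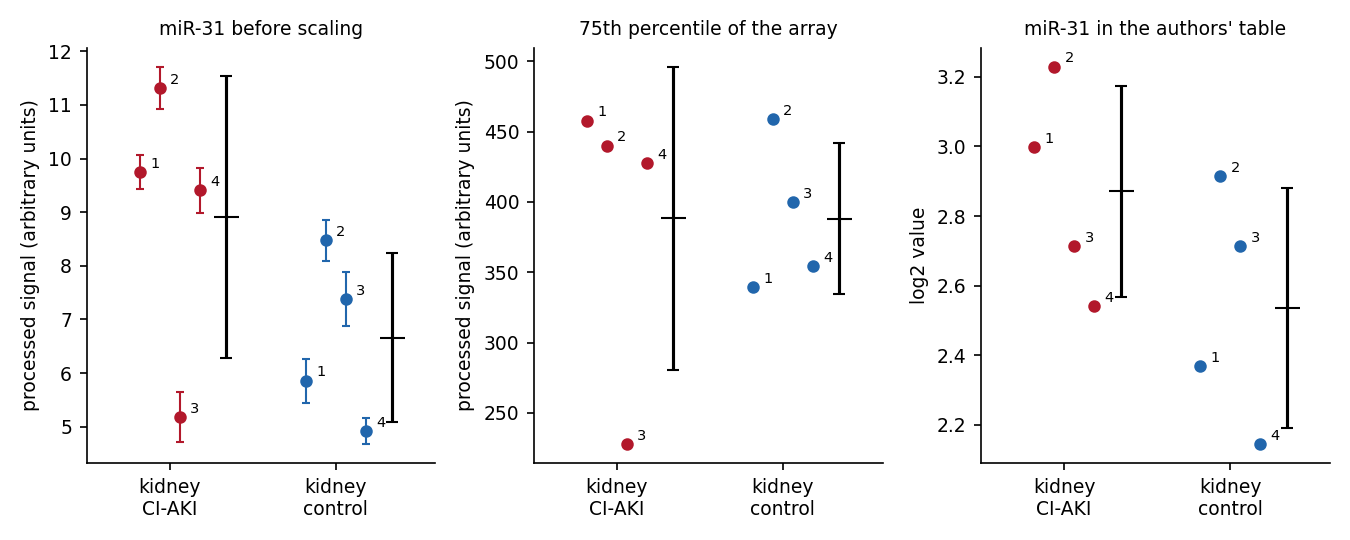
Left, miR-31 processed signal before scaling (arbitrary units, standard error over spots); middle, the 75th percentile of each array (same units); right, the log2 value of miR-31 in the authors' deposited table, for CI-AKI kidney (red) and control kidney (blue), numbered by pool, with mean ± SD in black (n = 4). CI-AKI pool 3 is low in the left panel (5.18) and lowest in the middle panel (228), and the groups overlap in the left and right panels.

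The separation of the kidney groups depended on how the arrays were brought to a common scale. The direction is described only, since the kidney values chose miR-31. MiR-31 was higher in CI-AKI kidney in 23 of 23 alternative analyses, with log2 differences of 0.31 to 0.48 on the processed signal. The lowest of all was 0.042, with normexp background correction and its offset of 50, which is larger than the signal of miR-31 itself, and the highest was 0.62, with the scanner's total signal per miRNA. The groups did not overlap in 18 of the 23 and overlapped in 5. The detection filters, the floor and the blocks leave the miR-31 values unchanged, and leaving out 1 pool only takes from groups already apart. For those alternatives the direction and the lack of overlap were thus largely fixed beforehand. The gap between the lowest CI-AKI and the highest control pool was -0.041 on the log2 scale after quantile normalization, with a gap of -0.71 without scaling, of -0.50 when scaled to the labelling spike-in, of -0.33 with the total signal and of -0.37 in the authors' deposited table. Among the 10 alternatives that rescale or resummarise the signal, 5 kept the groups apart and 5 did not. Of the 5 that did, the gap was only 0.0013 with normexp and 0.013 with the brightest probe. It was 0.18 to 0.23 in the others.

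The authors' deposited table, which was log2 transformed and has equal column medians of 2.28, gave miR-31 values of 3.00, 3.23, 2.71 and 2.54 in CI-AKI kidney pools 1 to 4, against 2.37, 2.91, 2.71 and 2.14 in control kidney pools 1 to 4. The difference of means there was 0.34, with SDs of 0.30 in CI-AKI and 0.35 in control. Leaving out CI-AKI pool 3, an alternative chosen after seeing the data, gave differences of 0.29 to 0.69 over the 5 overlapping scalings. Its removal separated the groups in 1 of the 5, the signal without scaling.

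**Figure D4:**
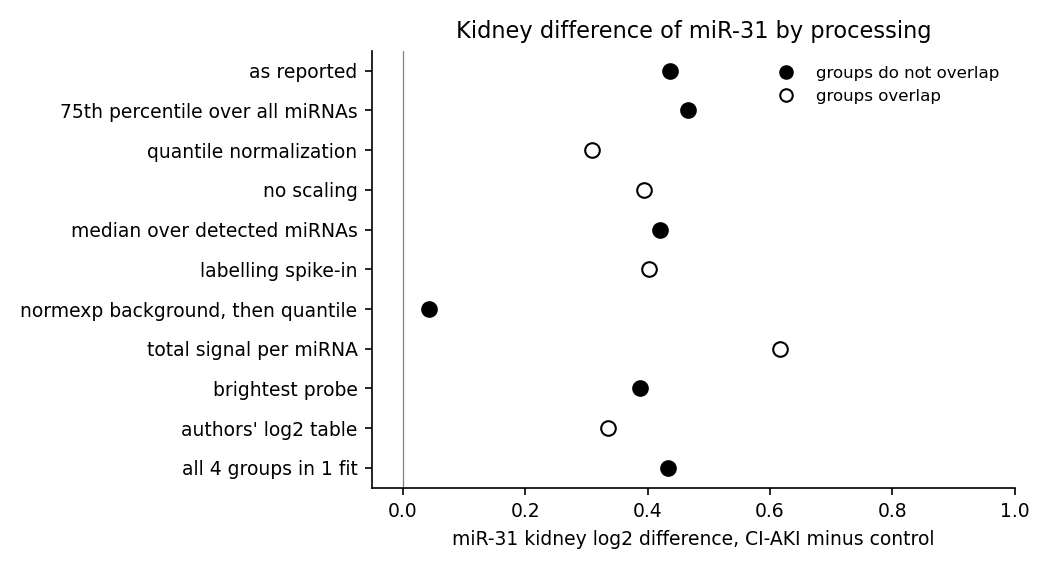
Log2 difference of miR-31 in kidney, CI-AKI minus control (horizontal axis), as reported and under the alternatives that change the scaling, the summary of spots or the arrays scaled together. Filled points mark settings in which the 4 CI-AKI and 4 control pools do not overlap; all points lie above 0, from 0.042 to 0.62.

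Other measures of the kidney arrays stood as follows beside this difference. The number of detected miRNAs was 216, 216, 174 and 189 in CI-AKI pools 1 to 4, against 179, 195, 169 and 178 in control pools 1 to 4. The mean of 199 ± 20.8 in CI-AKI and of 180 ± 10.8 in control (SD, n = 4 each) differed by 18.5, with p = 0.229 in a two-sided exact permutation test. The part of this measure in the miR-31 difference was not tested. The arrays also carry a control feature whose name, dmr_31a, points to the Drosophila miR-31 and whose sequence was not used here. Its signal was 1041, 706, 550 and 923 units in CI-AKI kidney pools 1 to 4, against 895, 817, 725 and 782 in control kidney pools, and its log2 difference was -0.038 (two-sided exact permutation p = 0.914). MiR-31 stood at 0.936%, 1.60%, 0.941% and 1.02% of that feature in CI-AKI kidney pools, against 0.655%, 1.04%, 1.02% and 0.629% in control kidney pools, so the groups overlapped on this ratio. Whether any of the miR-31 signal comes from this control was not tested.

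Across the kidney, few miRNAs separated the groups. Of 176 tested miRNAs (those detected on all 4 arrays of at least 1 group), 9 or 5.11% had CI-AKI pools all above the control pools, and 0 had them all below (0%). At an adjusted p under 0.05 in limma, 3 or 1.7% were called, all higher in CI-AKI, and they were miR-327, miR-466b and miR-494. MiR-327 was detected on 4 CI-AKI and 0 control arrays and miR-466b on 4 CI-AKI and 1 control arrays, so both entered the test only through the CI-AKI group. The same holds for miR-188, another of the 9, detected on 4 CI-AKI and 1 control arrays. Among the 163 miRNAs detected on every kidney array, 6 had CI-AKI pools all above the control pools. Of these 163, 0 were called in limma, with 8 at an unadjusted p under 0.05. At an unadjusted p under 0.05 the count was 11 or 6.25%. Since the kidney values chose miR-31, nothing is read from its place among them. By the size of the gap between groups the 9 ran from miR-327 (2.61 on the log2 scale) through miR-466b (0.67), miR-188 (0.43), miR-494 (0.35) and miR-31 (0.20) to miR-27a (0.063), miR-27b (0.057), miR-24 (0.052) and miR-24-2* (0.048). Just outside were miR-7a* (-0.0074), miR-542-5p (-0.014) and miR-429 (-0.015), whose groups overlapped by those amounts.

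By difference of log2 means, miR-31 was the seventh largest of the 176, whose median difference was 0.028. Of the 163 miRNAs detected on all 8 kidney arrays, it had the largest difference after miR-494. Both places rest on the values that chose miR-31, so nothing is read from them. The neighbours above it were miR-335 (0.50), miR-330* (0.55) and miR-494 (0.78), an miRNA reported in kidney ischaemia in mice, and those below it were miR-409-3p (0.35), miR-30c-1* (0.33) and miR-320 (0.32). Of these 6 neighbours, only miR-494 had groups that did not overlap. The spread of miR-31 within groups, 0.16, was above the median over the tested miRNAs of 0.13 and ranked 121 of 176 from the lowest. MiR-335 and miR-330* were detected on 4 of 4 CI-AKI and on 1 of 4 control arrays, so both entered the test only through the CI-AKI group. Their spreads within groups were 0.39 and 0.46. The mean scaled signals of miR-335, 8.90 in CI-AKI and 6.48 in control, were close to those of miR-31.

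The miRNA lists to which miR-31 belongs or beside which it is discussed showed few calls. These lists were chosen with earlier results known, and each call is set beside the 1.7% of all tested kidney miRNAs. Counts of higher members stand beside 106 of all 176 tested kidney miRNAs that were higher in CI-AKI. MiR-31 itself was left out of the counts and medians of its lists, since its kidney values chose it. Of the other members of the inflammation-responsive list, 7 of 8 on the array were tested, and 0 passed the adjusted threshold in either direction. They were higher in 4 and lower in 3, with a median log2 difference of 0.014 against 0.028 over all tested miRNAs. MiR-146a and miR-146b, which damp NF-kB signalling, stood at -0.033 and 0.032, while miR-21, a miRNA raised in many injured tissues, was at -0.0014. MiR-17-3p, induced by TNF together with miR-31 in human endothelium, was at 0.014.

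Among epithelial repair miRNAs other than miR-31, 4 of 6 on the array were tested, with 2 higher, 2 lower, 0 called and a median of 0.017. MiR-203, a keratinocyte differentiation miRNA, was at -0.079, and miR-200b and miR-200c, which keep cells epithelial by repressing ZEB1 and ZEB2, were at 0.036 and 0.15. Of hypoxia-responsive miRNAs, 9 of 9 were tested, with 8 higher, 1 lower, 0 called and a median of 0.055. Over all 176 tested kidney miRNAs, 106 were higher, and whether the list moved as a set was not tested. MiR-210, the common target of hypoxia-inducible factors, was at 0.20 (SE 0.13), and miR-23a, miR-23b and miR-24 were at 0.082, 0.055 and 0.19. Of kidney injury miRNAs, 11 of 13 on the array were tested, with 7 higher, 4 lower and a median of 0.042. MiR-494 was the 1 member called, at 0.78 (SE 0.16, limma adjusted p = 0.0475), with scaled means of 28.4 in CI-AKI and 16.2 in control. It was higher in CI-AKI in all 23 alternatives but passed in 5 of them (limma adjusted p 0.0173 to 0.716), and missed at 0.0930 when detection on every array was asked. MiR-188 had a difference of 1.08 (SE 0.29), was not called and was detected on 4 CI-AKI and 1 control arrays.

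Of the tested markers of cell types that a kidney piece can hold, 0 passed the adjusted threshold in either direction. Only 1 of the 5 muscle markers was tested. The 10 tubule markers had a summed scaled level of 13185 to 13365 in CI-AKI pools and of 11919 to 13644 in control pools. The 4 leukocyte markers (miR-223, miR-142-3p, miR-142-5p and miR-150) summed to 459 to 566 in CI-AKI and 487 to 597 in control, and their median difference was -0.058. The 3 erythroid markers summed to 1716 to 1853 in CI-AKI and 1683 to 1796 in control, with differences of 0.26 for miR-451, 0.13 for miR-144 and -0.013 for miR-16. The 4 endothelial markers summed to 1331 to 1571 in CI-AKI and 1361 to 1594 in control, the 5 of smooth muscle and stroma to 1236 to 1553 in CI-AKI and 1255 to 1569 in control, and the 4 of platelets to 6399 to 7410 in CI-AKI and 6208 to 6537 in control. Of the 5 muscle markers, miR-499 was detected on all 8 kidney arrays (47.2 units in CI-AKI, 48.8 in control) and miR-133b on 3 of 4 arrays in each group (7.62 units in CI-AKI, 7.61 in control), while miR-1, miR-133a and miR-206 were detected on 0 kidney arrays. The 5 summed to 50.2 to 67.2 in CI-AKI and 50.5 to 64.5 in control. The summed ranges overlapped between the groups for each of these lists. A sum mainly follows its brightest members, such as miR-22 among the platelet markers (mean 4155 units in CI-AKI, 3854 in control). The part of these markers in the miR-31 difference was not tested.

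The plasma arrays, which the choice of miR-31 did not use, carried an uneven miR-31 signal. Before scaling it was 1.27, 17.5, 6.64 and 0.606 units in CI-AKI plasma pools 1 to 4. Control plasma pools 1 to 4 had 4.41, 7.71, 18.7 and -0.336 units. CI-AKI pool 2 and control pool 3 thus stood above the highest kidney array (11.3), with 18 and 12 of 20 spots well above background. The scaled signal was 1.55, 5.56, 3.77 and 3.36 units in CI-AKI plasma pools 1 to 4, against 2.49, 3.40, 6.06 and -3.43 units in control plasma pools 1 to 4. It was called detected on 1 of 4 CI-AKI arrays (pool 2) and on 3 of 4 control arrays (pools 1 to 3), so on 4 of 8 plasma arrays. The highest single values came from both groups, CI-AKI pool 2 and control pool 3, and the groups overlapped. Means were 3.56 ± 1.65 in CI-AKI and 2.13 ± 4.00 in control (SD, n = 4 each), where the negative value is a signal below the background estimate.

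Having been detected on all 4 arrays of neither plasma group, miR-31 was not among the 96 plasma miRNAs tested. On the log2 scale, with values under 0.976 set to a floor, the difference was 0.28, beside a pooled SD within groups of 0.95. When miRNAs detected on at least 1 array were tested (233 miRNAs), the standard error was 0.59 and the limma adjusted p was 0.999, within 0.9498 to 0.999 over the 3 alternatives that tested it. None of these 233 was called (0%), with 6 or 2.58% at an unadjusted p under 0.05, and of the 96 also 0 were called (0%), with 5 or 5.21% unadjusted. Of the 96, the CI-AKI pools lay all above the control pools for 2 or 2.08% and all below for 3 or 3.12%. The probes gave differences of -0.078 for probe 1 and 0.75 for probe 2. Over 24 alternatives the plasma difference was positive in 16 and negative in 8, from -0.49 to 0.69. The detection filters and the blocks repeat the 0.28. Rescaling or resummarising gave -0.21 with quantile normalization, -0.36 without scaling, -0.019 with normexp, -0.49 with total signal and -0.26 with the brightest probe. The authors' deposited table gave -0.0035. The percentile over all miRNAs gave 0.0034, the median 0.51, the spike-in 0.19 and all 4 groups in 1 fit 0.48. The plasma difference thus changed sign with the scaling. It turned to -0.066 without control pool 4 and to -0.030 without CI-AKI pool 2. A plasma difference of the size seen in kidney was not detectable at this spread between pools, and whether the 2 tissues differed in their response was not tested.

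Kidney and plasma were set on 1 scale by the 65 miRNAs detected on all 16 arrays. On it miR-31 had scaled signals of 3.83, 4.72, 4.36 and 3.88 in CI-AKI kidney, 3.09, 3.38, 3.31 and 2.66 in control kidney, 3.19, 12.5, 7.77 and 6.97 in CI-AKI plasma, and 5.143, 6.990, 12.05 and -7.077 in control plasma. The group means ran from 7.60 ± 3.81 in CI-AKI plasma through 4.28 ± 8.11 in control plasma and 4.20 ± 0.424 in CI-AKI kidney to 3.11 ± 0.322 in control kidney. In that order no neighbouring means that involve plasma differed by more than the plasma SD. Kidney minus plasma, averaged over treatments, was -0.68 on the log2 scale (SE 0.37, limma adjusted p = 0.101), while 149 of 185 tested miRNAs, 80.5%, were called between tissues, with 60 (32.4% of those tested) higher in kidney. The sign turned with the scaling, to 0.87 after quantile normalization (limma adjusted p = 0.0288), 0.71 in the authors' deposited table (0.0577), 0.52 without scaling (0.434) and 0.025 with normexp (0.296). It passed the threshold at -0.95 without control plasma pool 4 (limma adjusted p = 0.00313), at -0.76 without pool 4 of both plasma groups (0.00849) and at -1.41 with the total signal (0.00703). The kidney and plasma pools came from the same 24 rats, and the fit treated all 16 arrays as independent. Which pools share rats is not stated, so these p-values ignore that link. Tissue and slide cannot be told apart either, so no order of the tissues is given for miR-31.

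By Pearson correlation of log2 scaled signals within a tissue, the miRNA whose pattern over arrays lay nearest to that of miR-31 was miR-27a, a miRNA of the miR-23a, miR-27a and miR-24-2 cluster known for roles in fat cell differentiation and vessel growth. Its scaled signal was 675, 751, 765 and 683 in CI-AKI kidney pools 1 to 4, against 604, 646, 601 and 566 in control kidney pools 1 to 4. The Pearson correlation with miR-31 over the 8 kidney arrays was 0.93, the highest of 162 miRNAs detected on all of them, and Spearman's rho was 0.95. MiR-31 was chosen for kidney groups that did not overlap. The kidney order over all 8 arrays therefore favours other miRNAs that separate the groups. As deviations from the group means it was 0.75 and ranked 7, below its value with the group difference included, and after quantile normalization it was 0.68 and ranked 3. MiR-27b had 0.44 as deviations from the group means and ranked 45 there, and ranked 10 after quantile normalization. The next in the main order were miR-24-2* (0.86), miR-27b (0.84), miR-9 (0.80) and miR-326 (0.79), of which miR-27a, miR-27b and miR-24-2* are also among the 9 non-overlapping miRNAs. At the other end were miR-192 (-0.49), let-7d (-0.49) and miR-139-5p (-0.56), and the median correlation was 0.18.

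In plasma the highest correlations, among 74 miRNAs detected on all 8 arrays, were those of miR-27a (0.76), miR-27b (0.72), miR-126 (0.70), miR-30c (0.70) and miR-29c (0.68). By Spearman's rho miR-27a was at 0.69 and ranked 9 of the 74, and as deviations from the group means miR-27b ranked 1 (0.84) and miR-27a ranked 3 (0.76). The lowest were miR-483 (-0.73), miR-30e* (-0.80) and miR-300-5p (-0.90). MiR-27a had 357, 616, 551 and 282 units in CI-AKI plasma pools 1 to 4, against 330, 663, 533 and 228 in control plasma pools 1 to 4, with pool 4 lowest in both groups. Without the weak pool 4 arrays of both groups, an alternative chosen after seeing the data, miR-27b ranked 2 (0.85) and miR-27a ranked 6 (0.74) over 6 arrays. These correlations describe arrays that share a slide, a percentile used for scaling and a treatment layout, and with miR-31 detected on only 4 plasma arrays the plasma ones include values at background.

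The main mature strands of miR-27a and miR-27b, shown because both were among the 5 highest Pearson correlations in each tissue, have the seed in capitals, and it differs from that of miR-31a-5p.
rno-miR-27a-3p: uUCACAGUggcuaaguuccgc
rno-miR-27b-3p: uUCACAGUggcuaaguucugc

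The 2 strands share the seed and differ at 1 of 21 bases. They come from different clusters, miR-27a-3p from chr19:40859614-40859634 and miR-27b-3p from chr17:1819163-1819183, both on the minus strand of GRCr8, and signal of one on the other's probes was not tested. The array names neither with an arm. MiR-24-2-5p, which the array calls miR-24-2*, lies beside miR-27a at chr19:40859517-40859538. Of the 5 highest Pearson correlations with miR-31 in kidney, group difference included, 2 thus belong to that cluster.

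**Figure D5:**
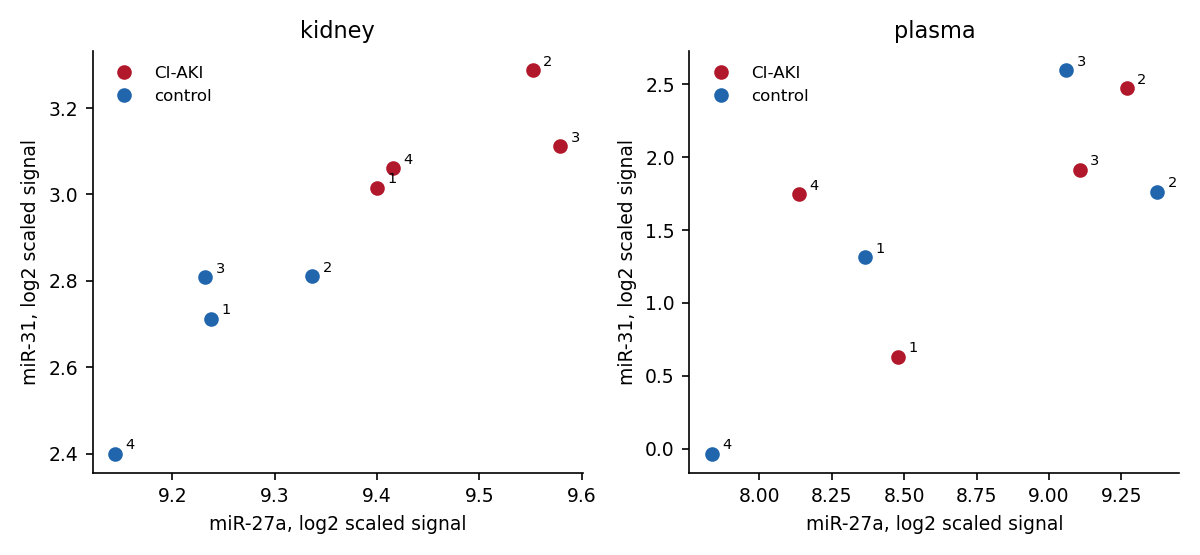
MiR-31 (vertical axis) against miR-27a (horizontal axis), both as log2 scaled signal, on the 8 kidney arrays (left) and the 8 plasma arrays (right), CI-AKI in red and control in blue, numbered by pool. In kidney the CI-AKI pools lie above and to the right of all control pools (r = 0.93 over 8 arrays); in plasma the treatments are mixed (r = 0.76 over 8 arrays).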

How the data were processed

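Per the labels' protocols, total RNA was labelled with Agilent's miRNA kit. Per the file headers, Feature Extraction 10.7.3.1 read the spot intensity, and the deposited files give a background-subtracted processed signal per spot for 938 probes and 7000 spots per array. The authors also deposited a log2 table, used as an alternative, with values that correlated at 0.918 to 0.996 with the same array. How it was made is not given in the sources used here.

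Spots without outlier flags were averaged per probe, then per miRNA. Arrays were scaled by the 75th percentile of miRNAs detected throughout the tissue (163 in kidney, 74 in plasma, 65 over both). Low values were set to a floor, which is the median of the arrays' lowest detected signals (1.79 in kidney, 0.976 in plasma, 1.31 over both), before log2 was taken, which understates changes of dim miRNAs. Normexp, an alternative, used the median spot signal. Tests were limma 3.58.1 in R 4.3.3 (lmFit, eBayes, two-sided, Benjamini-Hochberg over all tested miRNAs, threshold 0.05), checked on simulated data, and exact permutation tests over 70 labellings for single array measures. Python 3.11.15, pandas 2.3.3, numpy 2.4.6 and matplotlib 3.10.9 did the rest.

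MiR-31 and the lists were chosen with earlier results of these data known. Named are miR-31, the non-overlapping and nearly non-overlapping kidney miRNAs, the 3 neighbours on each side, the 5 most and 3 least alike in each tissue, and up to 4 tested members of each list; miR-17-3p, miR-200c, miR-1, miR-133a, miR-133b, miR-206 and miR-122 were named after their values were seen. Within a tissue, pools are separate sets of rats, whose number limits the precision. Kidney and plasma pools share the same 24 rats. Pool numbers were checked as pairs by correlating deviations from group means of CI-AKI and control. They were 0.20, 0.59, -0.10 and 0.15 in kidney, where only pool 2 was most like its own number. In plasma they were 0.22, 0.49, 0.62 and 0.60, and each pool was most like its own number. What plasma pools of the same number share was not tested, so pairing is not established.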

Additional observations from a re-analysis of the deposited data

Results flagged for a closer look

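In 5 of 36 groups checked, 1 array lay far from the other 3 of its group on Dixon's test, where chance marks about 1 in 20. Several of these flags fell on the same array, control plasma pool 4. The 5 are therefore not separate outliers, and no excess over chance is read from them. None of the flags concerned miR-31 itself, and no cause was tested. CI-AKI kidney pool 3 had a log2 75th percentile of 7.83, against 8.74 to 8.84 in the other CI-AKI kidney pools, and this percentile scales its miR-31 value. Control plasma pool 4 had 84 detected miRNAs, against 188 to 208 in the other control plasma pools. Its log2 75th percentile was 5.02, against 9.20 to 10.0, and its labelling spike-in dmr_285 was at 5.78 on the log2 scale, against 10.69 to 11.62. CI-AKI plasma pool 4 had the control feature dmr_31a at 5.36 on the log2 scale, against 9.13 to 9.61 in the other CI-AKI plasma pools.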

How the results depend on the processing

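The kidney difference of miR-31 moved most with normexp background (0.042) and total signal (0.62), and, without CI-AKI pool 3, to 0.64 unscaled and 0.69 with total signal; leaving out 1 pool at a time gave 0.34 to 0.48. The offset of 50 in normexp exceeds the miR-31 signal; the cause of the other shifts was not tested. The count of kidney miRNAs past the threshold was 3 as reported, 1 with quantile normalization, without scaling, with normexp or with all 4 groups in 1 fit, 0 of 163 when detection on every array was asked (limma; 8 at an unadjusted p under 0.05), and 2 to 3 without 1 pool; miR-327 passed in the 22 alternatives that tested it, miR-466b in 18 of 22 and miR-494 in 5 of 23. The tissue difference of miR-31 reversed to 0.87 (quantile), 0.52 (unscaled), 0.025 (normexp) and 0.71 (authors' deposited table), and passed at -1.41 (total signal) and -0.76 (without pool 4 of both plasma groups), with -0.95 to -0.44 without 1 pool. The count between tissues was 58 when detection on every array was asked, which leaves fewer miRNAs, and 147 to 176 without 1 pool.

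With pool numbers as a replicate block, the calls stayed at 3 in kidney and 0 in plasma (limma), with 10 instead of 5 plasma miRNAs at an unadjusted p under 0.05, and the tissue difference of miR-31 stayed at -0.68 (adjusted p = 0.0713). The median plasma difference of all tested miRNAs was -0.086 as reported, -0.35 on the spike-in scale and 0.13 on the median scale. The plasma difference of miR-31 ran from -0.066 to 0.69 without 1 pool.

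Array measures, CI-AKI minus control, changed sign when 1 pool was left out: log2 75th percentile -0.14 to 0.20 in kidney and -1.28 to 0.66 in plasma, dmr_31a -0.18 to 0.13 in kidney and -1.02 to 1.34 in plasma, dmr_285 -0.080 to 0.055 in kidney and -1.21 to 0.96 in plasma, and detected miRNAs -35.9 to 15.3 in plasma. Of the 5 miRNAs most like miR-31, the shared number was 3 by rho, 1 by quantile and 1 by deviations in kidney, and 2, 3 and 3 in plasma. Signal near background limits miR-31 on 4 plasma arrays.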
